A study of Rattus norvegicus with 14 samples.

Results

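Birc6 and Trit1 are 2 of the 19769 gene symbols named on the rat array of this study. They were chosen by the p-values of the contrasts between diets, which were among the smallest of the series for both, so their differences between diets are given here as a description, with no test. Each gene had 1 probe, printed once per array.

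The study measured total RNA of the plantaris, a hindlimb muscle of the calf, from 14 Wistar rats on Agilent 1-colour arrays, with 1 array per labelled biological replicate. The control group (n = 4) ate feed that held vitamin D at 1000 IU per kg, the depletion group (n = 6) a vitamin D depletion diet, and the repletion group (n = 4) the depletion diet followed by a repletion diet. The labels state neither age, sex and length of feeding nor the vitamin D content of the other diets. The diet field of depletion replicate 1 names depletion and repletion, against its title. It was kept in the depletion group by its title, and the group means, gaps and differences of both genes, with the list values it moved most, are also given without it.

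Birc6 encodes a very large inhibitor of apoptosis that carries both a BIR domain, the domain that binds caspases and their activators, and a ubiquitin-conjugating domain. It ubiquitinates pro-apoptotic proteins such as Diablo and Htra2, takes its ubiquitin from the activating enzyme Uba6, and also marks the autophagy protein Map1lc3b for degradation. Trit1 encodes the tRNA isopentenyltransferase, which attaches an isopentenyl group, made by the mevalonate pathway, to an adenosine beside the anticodon of a small set of cytosolic and mitochondrial tRNAs. The selenocysteine tRNA is among its substrates, and in mitochondria Cdk5rap1 modifies the same base further.

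The probe sequences show what was measured, and the promoters show what precedes the annotated start of each gene. The Birc6 probe lies at chr6:20655096-20655155 on the minus strand of rn4, the build named in the file headers, and begins at base 14855 of the transcript it was designed on. The Trit1 probe lies at chr5:142371866-142371925 on the plus strand of rn4 and begins at base 1193 of its transcript. Both probes are 60 bases long and match transcript sequence, hence exons. Their place relative to the coding sequence was not annotated in the tables used here. The Birc6 probe holds a stop codon in each of its 3 forward frames, so it cannot lie wholly inside coding sequence, while the Trit1 probe is free of stop codons in 2 of 3. The first 30 bases of the Birc6 probe and the whole Trit1 probe are these.
Birc6 probe: cttaaggagatccagtttaattcaaggtga
Trit1 probe: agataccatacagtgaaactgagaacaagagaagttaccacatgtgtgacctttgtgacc
GC content was 35.0% for the Birc6 probe and 41.7% for the Trit1 probe. The RefSeq table also lists a Trit1 pseudogene, Trit1-ps1, and whether the Trit1 probe binds its transcript was not tested.

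The 250 bases before each annotated start, from RefSeq on the newer build GRCr8, lie at chr6:26668276-26668525 on the minus strand for Birc6 and at chr5:140580203-140580452 on the plus strand for Trit1. Capitals mark GCGCATGC, the core of the binding sequence of nuclear respiratory factor 1, a regulator of genes of mitochondrial function.
Birc6 promoter: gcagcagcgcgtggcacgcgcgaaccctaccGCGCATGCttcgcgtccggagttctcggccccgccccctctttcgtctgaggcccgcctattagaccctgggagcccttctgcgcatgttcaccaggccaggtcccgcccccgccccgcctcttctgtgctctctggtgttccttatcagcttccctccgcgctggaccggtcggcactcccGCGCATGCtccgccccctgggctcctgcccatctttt
Trit1 promoter: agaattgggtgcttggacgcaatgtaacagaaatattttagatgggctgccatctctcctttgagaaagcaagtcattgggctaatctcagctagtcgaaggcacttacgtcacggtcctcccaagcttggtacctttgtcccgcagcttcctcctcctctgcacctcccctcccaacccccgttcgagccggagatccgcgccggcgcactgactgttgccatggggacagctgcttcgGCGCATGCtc
GCGCATGC, searched on both strands, began at positions -219 and -37 from the start of Birc6 and at -10 from the start of Trit1. It occurred in 736 of 33469 promoter windows of the same length (2.20%). This motif was chosen after the promoter sequences had been looked at, so its presence before both genes is a description only. The Birc6 window had a GC content of 68.4% with 25 CpG dinucleotides and 4 copies of the GC box GGGCGG, a motif found in 30.5% of windows. The Trit1 window had a GC content of 56.4% with 14 CpG dinucleotides, 1 copy of the cyclic AMP response core TGACGT (in 6.95% of windows) and 2 copies of CCAAT (in 34.0%). The median window held 51.2% GC and 5 CpG dinucleotides. The hexamers AGGTCA (in 14.1% of windows) and AGTTCA (in 12.2%), which occur in vitamin D receptor binding sequences, were found in neither window, and neither were their direct repeats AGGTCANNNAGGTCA (7 windows, 0.0209%) and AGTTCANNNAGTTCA (2 windows, 0.006%). TATAAA, the TATA box, was also in neither window (in 12.9% of all). The absence of these letters says nothing of sites outside the window.

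Signal strength and the share of spots well above background were similar on all arrays. The mean net signal of negative control spots was 24.5 on repletion replicate 4 and at most 18.7 on the others. Each array held 44254 spots, of which 82.8% to 88.1% were well above background and none was saturated, and the 75th percentile of the signal ran from 1781 to 2387. Levels below are log2 of the processed spot signal minus log2 of that array's 75th percentile, so a level of 0 is the signal of a probe at that percentile. The 14 arrays came from 5 slides, and each slide held depletion arrays together with control arrays, repletion arrays or both. The number of arrays limits the precision, and p-values measure the spread between these labelled biological replicates. Markers of skeletal muscle fibres checked the labelled tissue: the mean level of the 9 measured of 10 was 7.63 to 8.06 in control, 7.60 to 8.06 in depletion and 7.64 to 8.10 in repletion arrays.

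The Birc6 and Trit1 spots were well above background on 14 of 14 arrays, and neither was marked as an outlier on any. The Birc6 spot was 9.73 to 34.5 times as bright as its local background, and the Trit1 spot 23.5 to 58.8 times.

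Birc6 was lower in the depletion group than in both other groups. Its levels in the control arrays were -1.93, -1.81, -2.04 and -1.98. In the repletion arrays they were -1.85, -2.00, -1.88 and -1.99. In the 6 depletion arrays the lowest level was -3.44, the median -2.70 and the highest -2.18. All 6 depletion arrays lay below all 8 others, by a gap of 0.14 on the log2 scale. The highest depletion array was replicate 1, the one whose diet field contradicts its title, and without it the gap was 0.53. Depletion replicate 6 was the lowest, and the other 4 depletion arrays lay between -2.74 and -2.58. The group means were -1.94 ± 0.10 (SD, n = 4) in control, -2.72 ± 0.41 (SD, n = 6) in depletion and -1.93 ± 0.08 (SD, n = 4) in repletion. The depletion group had the largest SD, and this rested on replicates 1 and 6. Its mean was -2.83 ± 0.35 (SD, n = 5) without replicate 1, -2.58 ± 0.23 (SD, n = 5) without replicate 6 and -2.68 ± 0.07 (SD, n = 4) without both.

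The Birc6 level in depletion was lower than in control by a log2 difference of -0.78 ± 0.18 (SE), which is 58.2% of the control level. From depletion to repletion the log2 difference was 0.79 ± 0.18 (SE), or 1.73-fold. Repletion and control differed by 0.01 ± 0.20 (SE), less than the error of the difference. The SE of each difference uses a spread shared by all 3 groups. With only the 2 groups compared in the fit, the Birc6 SE was 0.10 between repletion and control and 0.21 between depletion and control. Of all 26387 probes fitted, ordered by p, the Birc6 probe was number 12 in depletion against control and number 3 in repletion against depletion. Over all settings of the processing its place ran from 1 to 55 in the first comparison and from 1 to 13 in the second. Leaving out depletion replicate 1 moved the log2 differences to -0.89 and 0.90, and leaving out depletion replicate 6 moved them to -0.64 and 0.65.

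Trit1 was likewise lower in the depletion group. Its levels in the control arrays were -1.45, -1.39, -1.30 and -1.60. In the repletion arrays they were -1.36, -1.57, -1.49 and -1.81. In the 6 depletion arrays the lowest level was -2.43, the median -2.11 and the highest -1.88. All 6 depletion arrays lay below all 8 others, but the gap was only 0.07, between depletion replicate 1 at -1.88 and repletion replicate 4 at -1.81. Without depletion replicate 1 the gap stayed at 0.07, since depletion replicate 2 had a level of -1.89. The group means were -1.44 ± 0.13 (SD, n = 4) in control, -2.10 ± 0.21 (SD, n = 6) in depletion and -1.56 ± 0.19 (SD, n = 4) in repletion. Without depletion replicate 1 the depletion mean was -2.14 ± 0.20 (SD, n = 5).

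The Trit1 level in depletion was lower than in control by a log2 difference of -0.66 ± 0.13 (SE), which is 63.2% of the control level. From depletion to repletion the log2 difference was 0.54 ± 0.13 (SE), or 1.46-fold. Repletion stood below control by -0.12 ± 0.14 (SE), again less than the error. Leaving out depletion replicate 1 moved the log2 differences to -0.71 and 0.59. The Trit1 probe was number 4 by p in depletion against control and number 5 in repletion against depletion. Over all settings its place ran from 1 to 27 and from 2 to 29 in these comparisons. These 2 comparisons share the depletion arrays, so for either gene the 2 differences are not independent of each other. In bulk muscle, fewer cells that express a gene and less RNA of it per cell cannot be told apart.

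**Figure D1:**
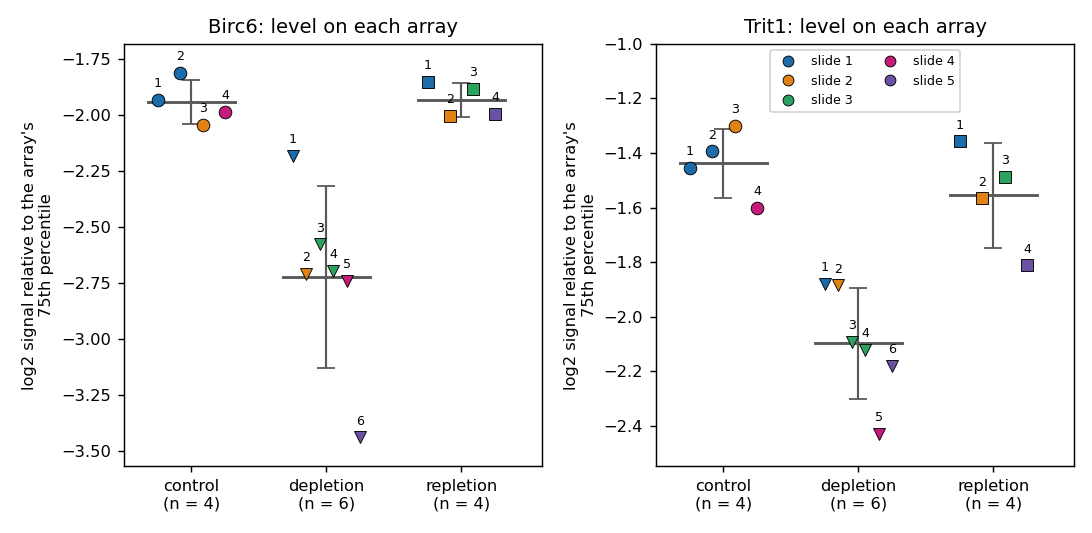
Level of Birc6 (left) and Trit1 (right) on each array, as log2 signal relative to the array's 75th percentile, by diet group; numbers are replicates, colours are slides, the bar is the group mean and the whiskers are the SD. All 6 depletion arrays lie below all 8 control and repletion arrays for both genes, by 0.14 for Birc6 and by 0.07 for Trit1.

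Arrays of different groups that shared a slide could be set side by side. Birc6 was lower in depletion than in control on each of the 3 slides that held both, by log2 differences of -0.31 on slide 1, -0.66 on slide 2 and -0.76 on slide 4. It was higher in repletion than in depletion on each of 4 slides, by 0.33 on slide 1, 0.71 on slide 2, 0.76 on slide 3 and 1.45 on slide 5. The smallest Birc6 difference in each set was that of slide 1, which carried depletion replicate 1, and the largest between repletion and depletion was that of slide 5, which carried depletion replicate 6. Between repletion and control, Birc6 differed by 0.02 on slide 1 and by 0.04 on slide 2.

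Trit1 showed the same direction on every slide. Depletion stood below control by -0.46, -0.59 and -0.83 on slides 1, 2 and 4. Repletion stood above depletion by 0.52, 0.32, 0.62 and 0.37 on slides 1, 2, 3 and 5. For Trit1, slide 1 was not the slide with the smallest difference between repletion and depletion. Between repletion and control Trit1 differed by 0.07 on slide 1 and by -0.27 on slide 2.

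Most of these within-slide differences rest on 1 array against 1, so they have no spread of their own. With slide as a fixed term in the linear model, the log2 difference between depletion and control was -0.65 ± 0.16 (SE) for Birc6 and -0.60 ± 0.11 (SE) for Trit1. Between repletion and depletion it was 0.82 ± 0.15 (SE) for Birc6 and 0.50 ± 0.10 (SE) for Trit1. Without depletion replicate 1, the fit with slide gave -0.82 and 0.92 for Birc6 and -0.64 and 0.52 for Trit1.

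**Figure D2:**
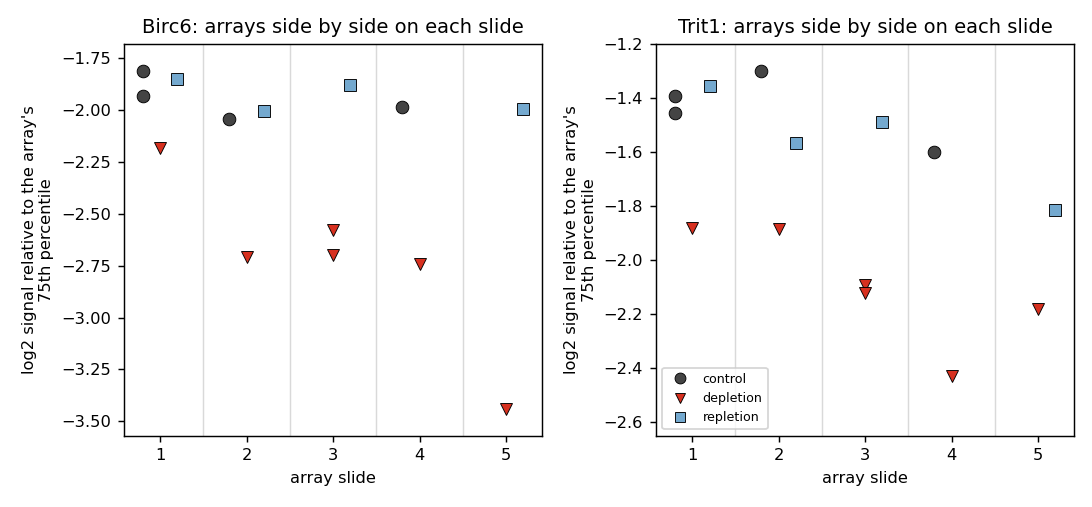
Level of Birc6 (left) and Trit1 (right), as log2 signal relative to the array's 75th percentile, on each of the 5 slides; circles are control, triangles depletion and squares repletion arrays. On every slide each depletion array lies below the control and repletion arrays beside it, with the smallest Birc6 gap on slide 1 and the widest, 1.45, on slide 5.

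The separation of the groups depended on the scale for depletion replicate 1. In unscaled spot signal, mean Birc6 intensity was 552 in control, 322 in depletion and 545 in repletion, and mean Trit1 intensity was 785, 480 and 710. On that scale 5 of 6 depletion arrays lay below all others for each gene. Depletion replicate 1 had a Birc6 signal of 517 against 506 in the lowest other array, and a Trit1 signal of 637 against 580. The count was 6 of 6 for both genes with a normexp background correction, a model that subtracts background without giving negative values. With quantile normalization it was 5 of 6 for Birc6 and 6 of 6 for Trit1, with a Trit1 gap of 0.0028. With each array centred on its median it was 5 of 6 for both.

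In the authors' deposited log2 values, whose background correction and filter are not stated, both genes had the same order. The Birc6 values were 9.03 ± 0.09 (SD, n = 4) in control, 8.50 ± 0.31 (SD, n = 6) in depletion and 9.14 ± 0.11 (SD, n = 4) in repletion. The Trit1 values were 9.89 ± 0.15, 9.32 ± 0.18 and 9.79 ± 0.19 in the same order of groups. All 6 depletion arrays again lay below all 8 others, by 0.044 for Birc6 and 0.036 for Trit1. The log2 differences between depletion and control on these values were -0.53 for Birc6 and -0.58 for Trit1, so on the authors' scale Trit1 had the larger difference. Between repletion and depletion they were 0.64 and 0.48.

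**Figure D3:**
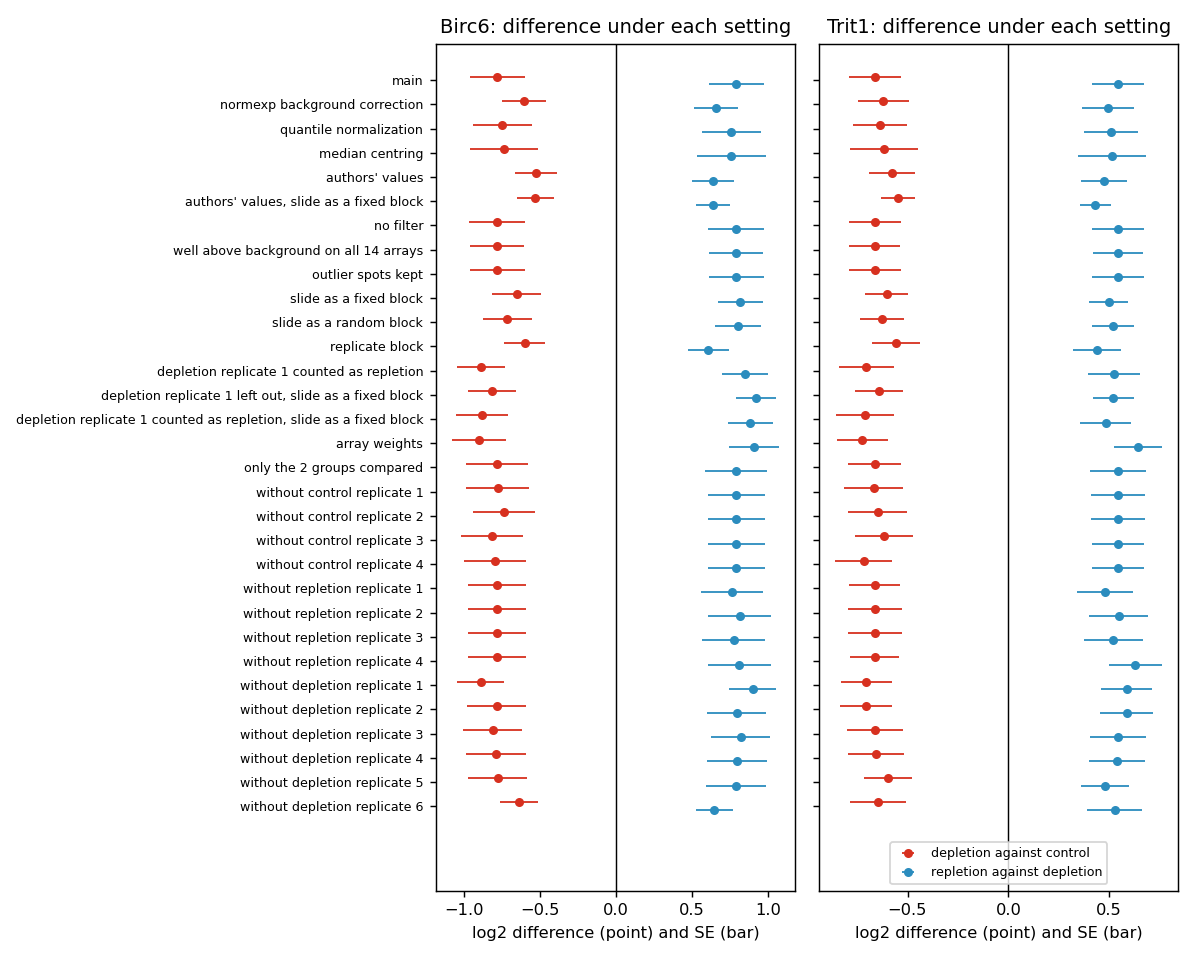
Log2 difference (point) with its SE (bar) of Birc6 (left) and Trit1 (right) in depletion against control (red) and repletion against depletion (blue), for the reported fit (main) and 30 other settings. Every red point lies below 0 and every blue point above 0; Birc6 runs from -0.90 to -0.53 and from 0.61 to 0.92, Trit1 from -0.72 to -0.55 and from 0.43 to 0.64.

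Few probes of the whole array had all depletion arrays below all others, as Birc6 and Trit1 did, and no probe passed the adjusted threshold between diets. With Benjamini-Hochberg adjustment over 26387 probes, limma's moderated test found 0 below an adjusted p of 0.05 in depletion against control (0.0%), Birc6 and Trit1 included. At an unadjusted p under 0.05, 974 probes differed (3.69%), of which 573 were lower in depletion (2.17%) and 401 higher (1.52%). Repletion against depletion also had 0 called (0.0%), with 380 probes at the unadjusted threshold (1.44%), 273 of them higher (1.03%) and 107 lower (0.406%). Repletion against control had 0 called (0.0%) and 225 probes at the unadjusted threshold (0.853%). The members were chosen for their p-values in these contrasts, so their place in these counts carries no further information.

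Of 26080 probes with a value on every array, 18 had all 6 depletion arrays below all others (0.069%) and 3 had all above (0.0115%). Both members were chosen on these same contrasts, so their places by gap carry no further information. Birc6 had the widest gap of the 18 and Trit1 the fourth widest. Between them stood Mpdz, a scaffold protein with many PDZ domains, and Lpcat1, a lysophosphatidylcholine acyltransferase, both with a gap of 0.10. Among the remaining ones, 2 of them without a gene name, were Blmh, Rnf216, Acin1, Trim23, Pam, Akap9, Tcf4, Mapk9, Fbxo3, Rabgap1 and Psmg2, all with gaps below that of Trit1. Without depletion replicate 1, 51 probes had all remaining depletion arrays below all others (0.196%) and 7 above (0.0268%). With all 6 depletion arrays, 13 of the 26902 probes of the authors' deposited table lay below all others (0.0483%). Depletion arrays lay below all control arrays for 133 of 26168 probes (0.508%) and below all repletion arrays for 61 of 26080 (0.234%).

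Over the 14 arrays, Birc6 and Trit1 levels had a Pearson correlation of 0.83. This value carries the difference between the depletion arrays and the others by which both genes were chosen. Among 17210 other genes, each represented by its brightest probe, Trit1 was number 3 in likeness to Birc6, and Birc6 was number 11 in likeness to Trit1. With each group's mean taken off, the correlation was r = 0.39 (permutation p = 0.185) with Spearman's rho = 0.53 (permutation p = 0.0561), each two-sided from 100000 resamples. This was the only relation of its kind that was tested. The resampling shuffled values over all 14 arrays, across groups and slides. The Birc6 SD was 0.41 in depletion against 0.10 in control and 0.08 in repletion. The p-values take all arrays as alike in spread and independent of slide, so they are only approximate. Depletion replicates 1 and 6 were the arrays farthest from the median for Birc6 with group means taken off. Without these, chosen on Birc6 alone, r was 0.32 over 12 arrays. With slide means taken off as well, r was -0.03 and rho 0.14. Within the depletion group, replicate 1 was highest and replicates 5 and 6 were the lowest for both genes, Birc6 being lowest in replicate 6 and Trit1 in replicate 5.

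**Figure D4:**
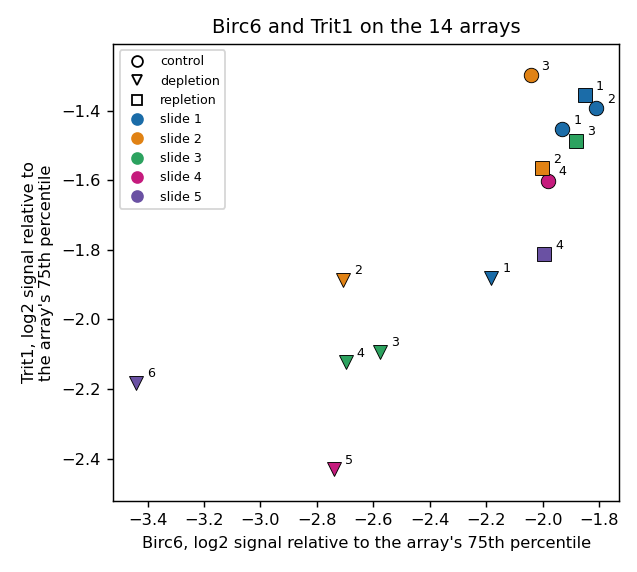
Trit1 level against Birc6 level on the 14 arrays, both as log2 signal relative to the array's 75th percentile; symbols are diet groups, colours are slides and numbers are replicates. The 6 depletion arrays lie apart at the lower left, with replicate 1 highest for both genes, Birc6 lowest in replicate 6 and Trit1 lowest in replicate 5.

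The genes most like Birc6 over the 14 arrays, after Trit1 is set aside, were Ylpm1 (r = 0.85), Cd164 (0.84), Psma7 (0.82) and Lpcat1 (0.81). Ylpm1 encodes a nuclear protein, Cd164 a sialomucin, and Psma7 a subunit of the proteasome core. Their log2 differences in depletion against control were smaller than that of Birc6 for Ylpm1 at -0.22 ± 0.10 (SE), Cd164 at -0.22 ± 0.15 and Psma7 at -0.20 ± 0.12. Lpcat1 had -0.64 ± 0.13, but its probe was well above background on only 7 of 14 arrays. With group means taken off, Birc6 still correlated with Cd164 at 0.87, with Ylpm1 at 0.80 and with Psma7 at 0.77, against 0.39 with Trit1. With slide means taken off instead, the most similar genes included Henmt1 (r = 0.91), Padi3, Lpcat1 and Or56b2b (each 0.90). Henmt1, Padi3 and Or56b2b correlated with Birc6 at only 0.20, 0.13 and 0.17 before that step.

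The genes most like Trit1 were Csnk2a1, the catalytic subunit of casein kinase II, with r = 0.91, followed by Phaf1 (0.90), Psmg2 (0.87), LOC365232 (0.87) and Rhoq (0.86). Their log2 differences in depletion against control were -0.37 ± 0.13 (SE) for Csnk2a1, -0.53 ± 0.14 for Phaf1, -0.21 ± 0.08 for Psmg2, -0.43 ± 0.13 for LOC365232 and -0.18 ± 0.09 for Rhoq. Each was smaller in size than that of Trit1. With group means taken off, Trit1 correlated at 0.89 with Csnk2a1 and at 0.48 with Psmg2, a chaperone of proteasome assembly. With slide means taken off, the most similar genes were LOC100911430 (r = 0.97), Aggf1 (0.93), Cacng5 (0.91), RGD1562431 (0.91) and Kdm4a (0.90). Before that step Cacng5 and RGD1562431 correlated with Trit1 at only 0.29 and 0.51, and LOC100911430, Aggf1 and Kdm4a at 0.71, 0.82 and 0.79. Cacng5 had a log2 difference of -0.07 ± 0.27 in depletion against control, and the RGD1562431 probe was well above background on 11 of 14 arrays. These genes were ranked on the same 14 arrays that show the pattern, so their correlations are given as a description, without a test.

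Genes beside Birc6 and Trit1 in the RefSeq table had smaller differences between depletion and control than the member beside them. Both members were chosen for small p-values in these contrasts, so this order of sizes carries no further information. On the side of Birc6 where Ttc27 is the nearest measured gene, the log2 differences in depletion against control were -0.37 ± 0.22 (SE) for Ttc27, 0.04 ± 0.21 for Ltbp1 and -0.40 ± 0.23 for Rasgrp3. On the other side they were 0.10 ± 0.11 for Yipf4, 0.26 ± 0.31 for Nlrc4 and -0.02 ± 0.11 for Slc30a6. In repletion against depletion, Rasgrp3, a guanine nucleotide exchange factor for Ras, had a log2 difference of 0.58 ± 0.23 and Ttc27 of 0.13 ± 0.22, against 0.79 for Birc6. Beside Trit1, the differences in depletion against control were 0.28 ± 0.40 for Mfsd2a, 0.01 ± 0.17 for Cap1 and -0.19 ± 0.11 for Ppt1 on one side. On the other they were -0.14 ± 0.39 for Bmp8b, -0.02 ± 0.27 for Oxct2b and 0.31 ± 0.11 for Ppie. Ppie, a peptidyl-prolyl isomerase of the spliceosome, went the other way from Trit1. Its level was -1.93 ± 0.07 (SD, n = 4) in control, -1.62 ± 0.19 (SD, n = 6) in depletion and -1.48 ± 0.14 (SD, n = 4) in repletion, so the repletion mean lay farther from control than the depletion mean.

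The RNAs of proteins that work with Birc6 had probes of their own. Each one named here had a smaller difference between depletion and control than Birc6. As Birc6 was chosen on these contrasts, that order carries no further information. Xiap, the related inhibitor of caspases, had a log2 difference of -0.23 ± 0.16 (SE) in depletion against control and of 0.22 ± 0.16 when repletion was set against depletion. Diablo, the mitochondrial antagonist of these inhibitors, had 0.02 ± 0.08, and Htra2, a mitochondrial protease with a like role, 0.15 ± 0.10. The initiator caspase Casp9 had -0.02 ± 0.19. Uba6, which charges Birc6 with ubiquitin, had 0.08 ± 0.11, and Map1lc3b, an autophagy substrate of Birc6, 0.06 ± 0.17. Each of these differences had limma's adjusted p above 0.05, as did that of every probe fitted, Birc6 included.

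For the list of inhibitors of apoptosis with their antagonists and the targets of Birc6, 16 of 16 genes were measured. Of these, 7 were higher and 9 lower in depletion than in control, with a median log2 difference of -0.01, against -0.02 over all probes fitted. Hax1, a mitochondrial anti-apoptotic protein and target of Htra2, had -0.15 ± 0.10 (SE). The wider apoptosis list had 26 of 27 genes measured, 18 higher and 8 lower, with a median of 0.09. In that list the BH3-only gene Bcl2l11 had 0.40 ± 0.22 and the mitophagy receptor Bnip3 0.18 ± 0.13. Ubiquitin-activating and ubiquitin-conjugating enzymes other than Birc6 had 29 of 32 measured, 15 higher and 14 lower, with a median of 0.01. Among them Ube2z, which like Birc6 is charged by Uba6, had 0.25 ± 0.13, Ube2d3 0.21 ± 0.13 and Ube2l3 -0.17 ± 0.10.

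The measured partners of Trit1 also had smaller differences than Trit1 itself. As Trit1 was chosen on these contrasts, that order carries no further information either. Cdk5rap1, which adds a methylthio group to the base that Trit1 modifies, had a log2 difference of -0.07 ± 0.15 (SE) in depletion against control and of 0.09 ± 0.15 when repletion was set against depletion. Cdkal1, which makes a methylthio group on another modified adenosine, had no probe that passed the filter on dim probes. Of the mevalonate pathway, which supplies the isopentenyl group, Fdps had 0.00 ± 0.09 and Idi1, the isomerase that makes the donor molecule, 0.32 ± 0.15. Sephs2, which makes selenium available for selenocysteine, had 0.08 ± 0.13. All of these measured genes had limma's adjusted p above 0.05, as did every probe fitted, Trit1 included.

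The list of other tRNA modification enzymes had 61 of 69 genes measured, 35 higher and 26 lower in depletion than in control, with a median log2 difference of 0.02. Trmt10a, a tRNA methyltransferase, was the only one of them with an unadjusted p under 0.05, at 0.42 ± 0.18 (SE). Mto1, which acts on the wobble uridine of mitochondrial tRNAs, had -0.23 ± 0.11. The mevalonate list had 10 of 10 measured, 6 higher and 4 lower, with a median of 0.02, and in it Mvk had -0.16 ± 0.11 and Mvd 0.16 ± 0.12. Selenoproteins and their synthesis had 21 of 23 measured, 13 higher and 8 lower, with a median of 0.03. Gpx1, the cytosolic glutathione peroxidase, had the only unadjusted p under 0.05 of that list, at 0.50 ± 0.18, while Secisbp2 had 0.12 ± 0.08 and Selenoo -0.17 ± 0.16.

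Taking the 6 lists as 1 set of 163 genes, limma called 0 in depletion against control and likewise 0 from depletion to repletion. At an unadjusted p under 0.05, 2 of the 163 were higher in depletion than in control (1.23%) and 0 lower, against 1.52% higher and 2.17% lower over all probes. In repletion against depletion 0 passed in either direction, against 1.03% higher and 0.406% lower over all probes. None of the 163 had a log2 difference in depletion against control below that of Trit1 or Birc6, which were chosen on these contrasts. The nearest was Birc7, an inhibitor of apoptosis, at -0.63 ± 1.15 (SE). The list medians in repletion against depletion ran from -0.06 in the apoptosis list to 0.03 in the ubiquitin enzymes, against 0.02 over all probes fitted. Without depletion replicate 1 the split in depletion against control turned in the ubiquitin enzymes, to 13 higher and 16 lower, and in the tRNA modification enzymes, to 28 higher and 33 lower. The list medians then ran from -0.03 to 0.09 in that comparison.

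**Figure D5:**
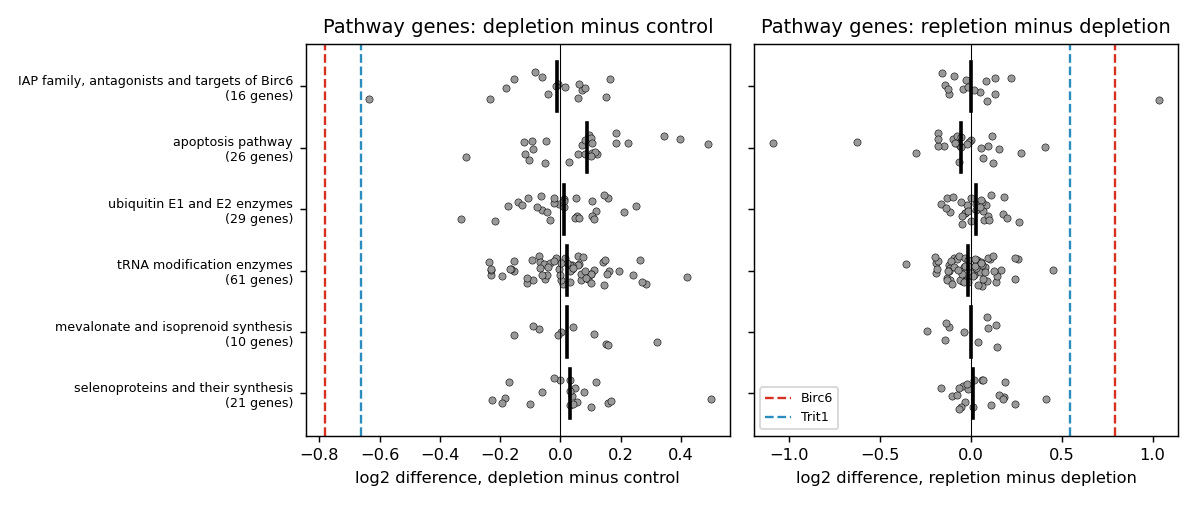
Log2 difference of each measured gene (grey point) of 6 pathway lists in depletion against control (left) and repletion against depletion (right), with list medians as black bars and the values of Birc6 (red) and Trit1 (blue) as dashed lines. No point on the left lies below either dashed line; on the right 1 point, Birc7 at 1.04, lies above both.

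In some lists of markers of other cell types, all measured members stood on the same side between diets. In depletion against control, 8 of 8 macrophage markers were higher, with a median log2 difference of 0.22, and 4 of 4 measured red blood cell markers (of 5 listed) were higher, with a median of 0.68. The mean level of the macrophage markers was -1.34 to -0.82 in control, -1.26 to -0.23 in depletion and -0.67 to -0.46 in repletion arrays. That of the red blood cell markers was -2.36 to -1.75, -2.29 to -0.48 and -2.17 to -1.51. In repletion against depletion, 4 of 4 red blood cell markers were lower, with a median of -0.39, as Birc6 and Trit1 were higher. There, 6 of 6 Schwann cell markers were higher, with a median of 0.57, and their mean level was -2.89 to -2.04 in control, -3.12 to -2.46 in depletion and -2.54 to -0.59 in repletion. The median array of each group stood at -2.75, -2.62 and -2.37, so the repletion range was stretched upward by its highest array. The 6 of 6 adipocyte markers were lower in repletion against depletion, with a median of -0.22 and mean levels of -2.40 to -1.10, -2.16 to -1.21 and -2.43 to -1.86 in the 3 groups. Endothelial markers (5 of 5 measured) had mean levels of -0.63 to -0.38, -0.59 to -0.23 and -0.82 to -0.47. In repletion against control, 8 of 8 macrophage markers were higher, with a median of 0.32, and 6 of 6 adipocyte markers lower, with a median of -0.14. No other marker list had all its measured members on the same side in that comparison. Without depletion replicate 1, 6 of 8 macrophage markers were higher in depletion than in control, with a median of 0.15, and the red blood cell median was 0.44. In repletion against depletion without it, the medians were -0.21 for red blood cell, -0.14 for adipocyte and 0.47 for Schwann cell markers. No marker was called by limma at an adjusted p under 0.05, and the part of these cells in the Birc6 and Trit1 differences was not tested.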

How the data were processed

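The authors' scanner files give the intensity of each spot as read by Agilent Feature Extraction 11.5.1.1; per the file headers, the processed signal is background-subtracted but not scaled between arrays. The authors also deposited a table of log2 values for 26902 probes (5.662 to 19.423), used as an alternative; per the submitters' processing notes limma was used, without its background correction or filter being stated. Here spots marked as outliers (0.669% to 1.05% per array) were set to missing, and log2 signal was taken relative to each array's 75th percentile. Of 30367 probes, 6522 had no gene name; the others were named through a RefSeq table on GRCr8, except 1813 that kept the name in the files. Coordinates of probes are those of the files (rn4).

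Probes had to be well above background on 4 or more of the 14 arrays and to have 2 or more values in each group. This kept 26387 probes of 17432 genes, each gene represented by its brightest probe. The 3 groups, by title, were fitted in 1 linear model (limma 3.58.1, R 4.3.3) with Benjamini-Hochberg adjustment over probes. The code was also run on simulated data without slide effects, with planted changes larger than those of Birc6 and Trit1. That run does not show whether changes of their size can be found. Birc6, Trit1 and the gene lists were chosen with earlier results of these data known. Genes named are both members, the 5 most correlated with each over arrays before and after slide means were taken off, the 3 nearest measured genes on each side, fixed partners, and the 3 of each list with the smallest unadjusted p; a few genes that meet this rule are not reported here. Same-numbered arrays did not deviate together in every pair, so replicate numbers were not treated as pairing. Alternatives were 14 fits leaving out 1 array and 16 other settings. Python 3.11.15, numpy 2.4.6, pandas 2.3.3, scipy 1.17.1 and matplotlib 3.10.9 were used.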

Additional observations from a re-analysis of the deposited data

Results flagged for a closer look

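No array passed Dixon's 95% criterion as far from its group for Birc6 or Trit1. Birc6 was nevertheless lowest in depletion replicate 6, at -3.44, with the next at -2.74. The criterion sets that gap against the range of the group, which replicate 1 at -2.18 widened. Among the 161 sets of a gene and a group looked at, over 54 genes, 10 had an array far from the rest of its group by Dixon's 95% criterion, and chance alone gives about 1 in 20. Each level in this paragraph is log2 signal relative to the array's 75th percentile. Among apoptosis genes, Bcl2l11 was highest in control replicate 3 (-5.14, the next at -5.66) and lowest in repletion replicate 4 (-5.89, next -5.18), and Bnip3 was lowest in repletion replicate 3 (5.38, next 5.60). Of the partners of Trit1, Cdk5rap1 was highest in repletion replicate 4 (-0.33, next -0.63) and Idi1 was lowest in control replicate 4 (-1.86, next -1.53). Ube2z was lowest in control replicate 4 (-0.70, next -0.25), and Mto1 was lowest in depletion replicate 4 (-0.59, next -0.24). Of the genes whose pattern was most like that of Birc6, Psma7 was lowest in control replicate 1 (4.07, next 4.37). Henmt1, which was like Birc6 only after slide means were taken off, was highest in control replicate 3 (-3.09, next -5.27). Phaf1, the gene next to Csnk2a1 in likeness to Trit1, was highest in depletion replicate 1 (-2.93, next -3.32).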

How the results depend on the processing

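Under all 30 alternatives Birc6 and Trit1 stayed lower in depletion than in control and higher in repletion than in depletion. Leaving out 1 array at a time gave -0.89 to -0.64 and 0.65 to 0.90 for Birc6, and -0.72 to -0.60 and 0.48 to 0.63 for Trit1. Between repletion and control, Birc6 ran from -0.04 to 0.17 and so changed sign, and Trit1 from -0.23 to -0.03. With depletion replicate 1 counted as repletion, the differences were -0.89 and 0.85 for Birc6 and -0.71 and 0.52 for Trit1. With the replicate number as a block they were -0.60 and 0.61 for Birc6 and -0.56 and 0.44 for Trit1, and 0 probes were called, as without it. No alternative called a probe; the lowest adjusted p over all settings was 0.194 in depletion against control, without repletion replicate 4, 0.810 in repletion against depletion and 0.845 in repletion against control. Normexp shifted the median of all probes to -0.15 in depletion against control and to -0.12 in repletion against control, and gave 321 probes higher and 1121 lower at an unadjusted p under 0.05 in depletion against control. With median centring those counts were 286 and 279, so such counts depend on the scaling. Of 540 list medians under the alternatives, 16 moved beyond the spread between replicates. Each gene rests on 1 probe and few arrays per group, which bounds the precision.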
